A study of Mus musculus with 10 samples.

Results

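The regions described here are Mettl3 wild-type m6A peaks that overlapped a knockout peak and had their midpoint inside genes, away from the gene ends. They were chosen by 2 measured properties of the peak lists. A wild-type peak had to share at least 1 bp with a knockout peak, and its midpoint had to lie inside the span of a gene, protein-coding or long non-coding, more than 200 bp from both ends. The knockout midpoint was not part of the rule. Of the 1080 knockout peaks paired in this way, 57 had their midpoint within 200 bp of a span end and 3 outside gene spans. Of the 12368 wild-type peaks, 1434 (11.6%) shared bp with a knockout peak, 303 of these had their midpoint within 200 bp of a span end, 62 lay outside gene spans, and the remaining 1069 are the peaks of this report, in 885 genes. Each of them therefore carries a peak in both lists by construction, and the overlap itself is not a result.

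The study profiled RNA of male mouse embryonic stem cells, derived from 129 mice and kept without feeder cells in serum and LIF. The m6A data came from polyA RNA of Mettl3 knockout cells (2 immunoprecipitates and 2 inputs) and of Mettl3 wild-type cells (2 immunoprecipitates and 2 inputs). One further pair of samples, from total RNA, was a pull-down of YTHDC1 carrying a Halo tag (RNA immunoprecipitation, RIP; 1 precipitate and 1 input), from cells with a Halo-Ythdc1 knockin. The knockout samples carry a cell type label that reads wild type, and the sample title was followed. The sources do not say whether the samples of a group were separate cultures or whether the knockout line was 1 clone.

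The authors' 3 lists held 6764 knockout m6A peaks, 12368 wild-type m6A peaks and 30992 RIP peaks. Each gives the position of a peak and nothing more, so there is no height, no read depth and no value per replicate, and no difference below can be set against a spread between replicates. Peaks are not replicates either. The intervals and p-values below cover the counting of peaks in these lists and compare the lists, not the conditions. Of the 2 knockout precipitates, 1 has a label that points to the knockout list and the other a label that points to the wild-type list, as do both wild-type precipitates, so the division of samples over the lists could not be established. Because the lists hold no expression levels, neither the loss of Mettl3 nor the cell type could be checked against them.

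The methyl mark m6A is placed on messenger RNA in the nucleus by a complex of METTL3, the catalytic subunit, with METTL14 and further partners that guide it, and is found above all near stop codons and in long internal exons. YTHDC1 is the reader of m6A in the nucleus, where it acts in splicing, export and the silencing of retrotransposon RNA. In embryonic stem cells the mark shortens the life of transcripts of pluripotency regulators. Antibodies to m6A in general use also bind m6Am, a related methylated nucleotide next to the cap at the start of a transcript. Which mark lies under a peak was not tested here.

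A transcription start annotated by RefSeq lay inside both the knockout and the wild-type peak for 95 of the 1069 peaks, and the sequence is shown for 5 of these. In all 5 the start lies more than 200 bp inside the gene span rather than at its end, as it also does in others of the 95. Scaf4 encodes a splicing-related protein that binds the tail of RNA polymerase II, Ppp1r10 (PNUTS) a nuclear subunit of protein phosphatase 1, Jarid2 a cofactor of Polycomb repressive complex 2, Ptp4a2 a protein tyrosine phosphatase and Ythdc1 the m6A reader itself. Jarid2, Scaf4 and Ythdc1 met the rule for named genes and the other 2 were chosen after their values were seen. Each line gives 300 bases of RefSeq on GRCm38.p6 (the coordinates of mm10), 5′ to 3′ on the gene's strand, with 250 bases before the start and 50 from it, and capitals mark the bases covered by both the knockout and the wild-type peak. The windows are chr16:90284437-90284736 (minus strand) for Scaf4, chr17:35916946-35917245 (plus) for Ppp1r10, chr13:44731021-44731320 (plus) for Jarid2, chr4:129820229-129820528 (plus) for Ptp4a2 and chr5:86804016-86804315 (plus) for Ythdc1.
Scaf4: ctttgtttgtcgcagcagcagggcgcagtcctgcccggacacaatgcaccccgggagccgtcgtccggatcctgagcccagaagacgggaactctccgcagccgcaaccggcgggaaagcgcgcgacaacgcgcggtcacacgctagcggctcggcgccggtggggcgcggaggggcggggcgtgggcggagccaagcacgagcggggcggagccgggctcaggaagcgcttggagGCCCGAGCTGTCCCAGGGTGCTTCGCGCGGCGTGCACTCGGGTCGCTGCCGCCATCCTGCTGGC
Ppp1r10: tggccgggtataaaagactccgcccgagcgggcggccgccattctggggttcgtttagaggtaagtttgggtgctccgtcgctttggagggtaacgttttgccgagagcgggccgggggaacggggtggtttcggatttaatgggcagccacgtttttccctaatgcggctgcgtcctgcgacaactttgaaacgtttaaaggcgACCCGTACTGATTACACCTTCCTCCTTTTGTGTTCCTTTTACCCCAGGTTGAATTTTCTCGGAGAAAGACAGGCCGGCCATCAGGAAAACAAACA
Jarid2: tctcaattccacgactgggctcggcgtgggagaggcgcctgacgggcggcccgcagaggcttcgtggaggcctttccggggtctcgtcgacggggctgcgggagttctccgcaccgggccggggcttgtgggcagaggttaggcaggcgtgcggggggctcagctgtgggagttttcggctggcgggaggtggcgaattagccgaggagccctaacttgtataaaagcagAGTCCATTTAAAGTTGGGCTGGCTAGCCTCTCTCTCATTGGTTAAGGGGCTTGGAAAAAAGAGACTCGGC
Ptp4a2: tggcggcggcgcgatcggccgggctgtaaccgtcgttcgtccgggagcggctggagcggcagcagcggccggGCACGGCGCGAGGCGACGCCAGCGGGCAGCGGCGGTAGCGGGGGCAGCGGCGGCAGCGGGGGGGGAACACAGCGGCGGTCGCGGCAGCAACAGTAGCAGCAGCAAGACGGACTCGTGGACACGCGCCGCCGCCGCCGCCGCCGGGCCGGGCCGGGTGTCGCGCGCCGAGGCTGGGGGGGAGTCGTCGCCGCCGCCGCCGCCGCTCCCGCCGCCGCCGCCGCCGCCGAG
Ythdc1: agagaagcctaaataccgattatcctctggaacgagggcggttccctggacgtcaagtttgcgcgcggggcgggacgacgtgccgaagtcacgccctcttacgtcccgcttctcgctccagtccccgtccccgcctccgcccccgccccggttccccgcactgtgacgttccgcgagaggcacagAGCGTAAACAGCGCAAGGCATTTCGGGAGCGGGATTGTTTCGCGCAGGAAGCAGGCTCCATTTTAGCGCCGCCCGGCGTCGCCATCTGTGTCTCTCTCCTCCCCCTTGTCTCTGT

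In Scaf4 the knockout and the wild-type peak were the same 500 bp (chromosome 16, 90284001 to 90284500), and the annotated start at 90284486 lay 1654 bp inside the span, so that both peaks reached 14 bases before it. In Ppp1r10 the knockout peak (chromosome 17, 35917151 to 35917650) and the wild-type peak (35917151 to 35917700) began at the same base, 45 bases before the start. In Jarid2 the knockout peak (chromosome 13, 44731251 to 44731800) and the wild-type peak (44731251 to 44731700) also began together, 20 bases before the start, and 2 RIP peaks lay on the wild-type peak. In Ptp4a2 the start lay 9314 bp inside the span and the knockout peak (chromosome 4, 129820301 to 129820700) and wild-type peak (129820251 to 129820700) covered 228 of the 300 bases, 178 of them before the start. In Ythdc1 the knockout peak (chromosome 5, 86804151 to 86804650, 500 bp) held the whole wild-type peak (86804201 to 86804350, 150 bp), whose midpoint was 10 bp from the start, and 1 RIP peak lay on it. The 5 pairs thus differ in how far the shared bases reach upstream of the start, which was least in Scaf4 and most in Ptp4a2.

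The letters of the start windows were compared with those of all annotated starts as a description. Over the 102 distinct windows whose start lay in both peaks, the median GC content was 62.5%, against 52.7% over all 32851 windows. The motif GGACT, a form of the METTL3 target site, occurred on either strand in 49 of the 102 windows (48%), against 45.5% of all windows, and GGACA in 44 (43.1%), against 47.9%. The base at the start was A in 36 windows (35.3%), against 34.4% of all windows. The shares of both motifs and of the first base were within a few percentage points of those of all windows. Most of each window lies before the annotated start. Motifs were counted over the whole window and not over the bases under the peaks alone. The motif shares therefore cannot show whether the RNA under these peaks is richer or poorer in the motifs. A match in these letters is not a methylated site, and no test was made.

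The knockout peaks at these sites were mostly narrow, while the wild-type peaks ranged widely. The 1069 peaks were paired with 1080 knockout peaks, giving 1100 pairs. The knockout peak had a median width of 250 bp (quartiles 200 and 350 bp, widest 1450 bp) and the wild-type peak a median of 350 bp (quartiles 200 and 700 bp, widest 4400 bp). One peak lay wholly inside the other in 899 pairs (81.7%): the knockout peak was inside in 514 (46.7%), the wild-type peak in 489 (44.5%), and 104 pairs (9.45%) were identical in both lists and are counted in each. The knockout peak was wider in 422 pairs (38.4%), the wild-type peak in 546 (49.6%), and the widths were equal in 132 (12%).

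**Figure D1:**
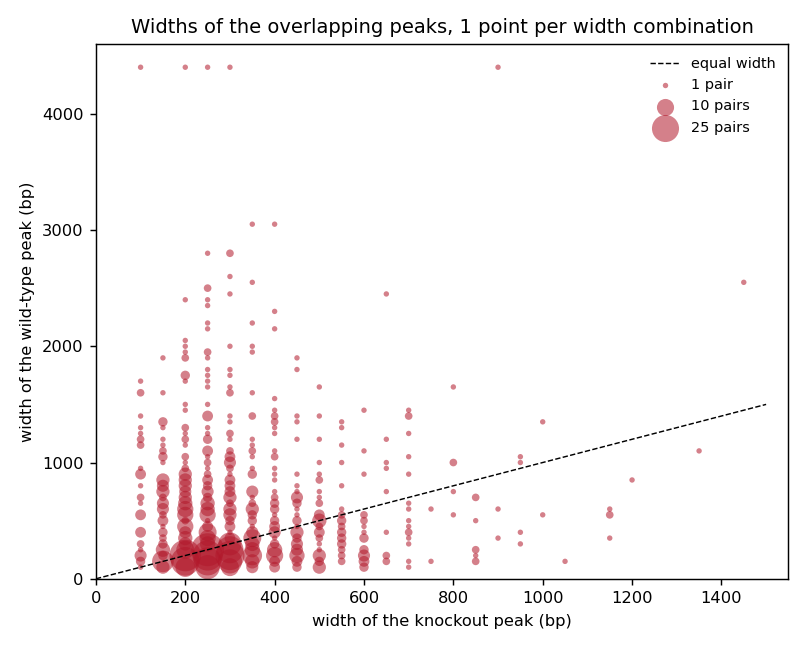
Width in bp of the knockout peak (horizontal) and of the wild-type peak (vertical) in the 1100 overlapping pairs. Each circle is 1 combination of widths and its area is the number of pairs; the dashed line marks equal widths. Knockout widths end at 1450 bp, wild-type widths at 4400 bp, and the 5 points at the top are the 5 knockout peaks under 1 wild-type peak in Spen.

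The knockout peaks were of much the same width under wide and under narrow wild-type peaks. In the 150 pairs with a wild-type peak over 1000 bp the knockout peak had a median width of 275 bp, and in the 457 pairs with a wild-type peak up to 250 bp it had a median of 250 bp. The stretch shared by a pair had a median of 200 bp and was at most 1300 bp, the shared share of the joint length (Jaccard index) had a median of 0.471, and the 2 midpoints lay a median of 75 bp apart and at most 2150 bp. Most peaks had a single counterpart: 1042 of the 1069 shared bp with 1 knockout peak, 25 with 2, and 2 with 3 or more. These values follow from the overlap that chose the peaks and from widths that depend on unknown depth, so they are given with no test. Near the thresholds of the rule, 18 of the 1069 peaks shared exactly 50 bp with a knockout peak, the smallest overlap on the 50 bp grid of the lists, and 25 wild-type-only peaks inside genes touched a knockout peak without sharing bp. Likewise 31 of the peaks had their midpoint at most 50 bp inside the 200 bp limit at a span end, and 58 overlapping peaks lay at most 50 bp on the other side of it.

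The 3 longest shared stretches lay in Kat6b, Polr2a and Cbll1. In Kat6b, which encodes a histone acetyltransferase, the knockout peak measured 1450 bp (chromosome 14, 21668251 to 21669700) and the wild-type peak 2550 bp (21668401 to 21670950), with 1300 bp in common. The midpoint of the wild-type peak lay 98.4% of the way along the gene. In Polr2a, the largest subunit of RNA polymerase II, the knockout peak of 1350 bp (chromosome 11, 69734401 to 69735750) held the whole wild-type peak of 1100 bp (69734451 to 69735550), whose midpoint was 1004 bp from the 3′ end of the gene. Cbll1 encodes HAKAI, a partner of the m6A writer complex, and its knockout peak of 1000 bp (chromosome 12, 31487351 to 31488350) lay inside a wild-type peak of 1350 bp (31487001 to 31488350). In each of these 3 genes both lists had a peak of at least 1000 bp.

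Zfp36l1, which encodes a protein that directs messages with AU-rich elements to decay, had a knockout peak of 950 bp (chromosome 12, 80109351 to 80110300) within a wild-type peak of 1000 bp (80109351 to 80110350). Kmt5c, a methyltransferase of histone H4, had a knockout peak of 1200 bp (chromosome 7, 4740101 to 4741300) around a wild-type peak of 850 bp (4740351 to 4741200). Rere, a nuclear receptor corepressor, had a knockout peak of 950 bp (chromosome 4, 150614701 to 150615650) and a wild-type peak of 1050 bp (150614501 to 150615550) that shared 850 bp. The pluripotency factor Klf5 had peaks of 800 bp in the knockout list (chromosome 14, 99301401 to 99302200) and 750 bp in the wild-type list (99301401 to 99302150). Ubn2, a subunit of the HIRA histone chaperone complex, and Phf3, a regulator of RNA polymerase II, shared 800 bp each.

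**Figure D2:**
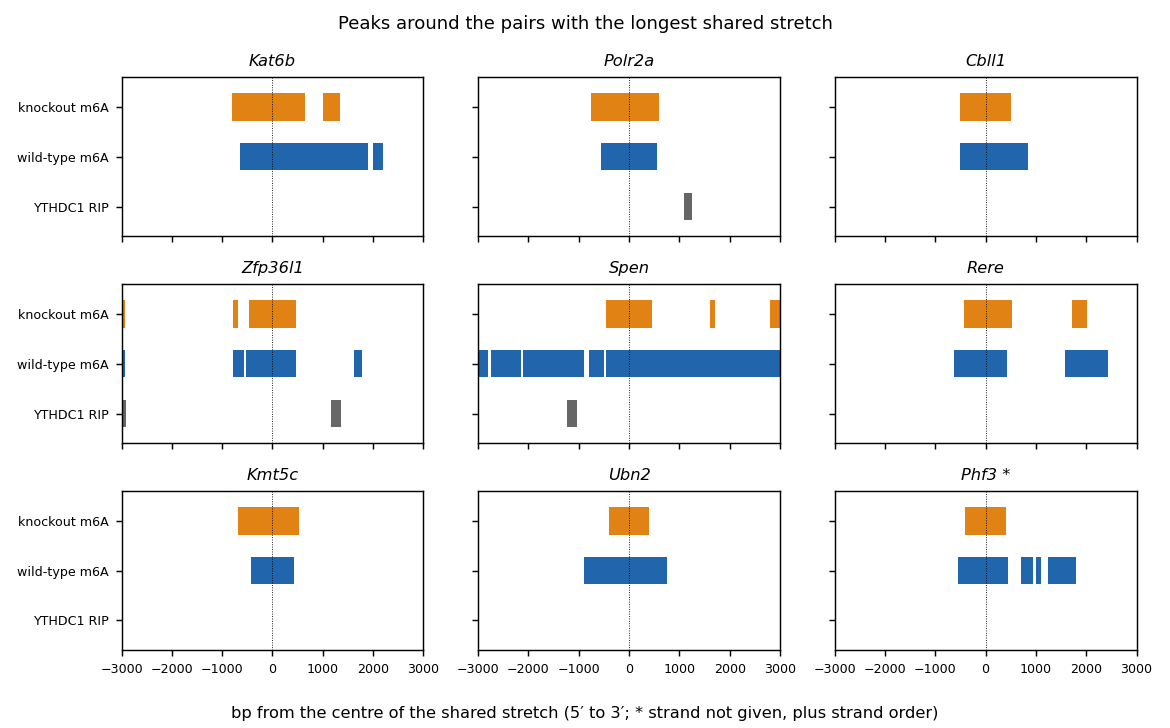
Knockout m6A peaks (orange, top row of each panel), wild-type m6A peaks (blue) and YTHDC1 RIP peaks (grey) within 3000 bp of the centre of the shared stretch, 5′ to 3′ where the strand is given, for 9 of the 10 longest shared stretches, in Kat6b, Polr2a, Cbll1, Zfp36l1, Spen, Rere, Kmt5c, Ubn2 and Phf3. No RIP peak covers the shared stretch in any of the 9 panels, and in Spen the wild-type peak runs beyond the panel.

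The widest wild-type peaks mostly had a small knockout counterpart. In Spen, a repressor that binds Xist RNA, 5 knockout peaks lay under 1 wild-type peak of 4400 bp, and the knockout peak sharing most with it measured 900 bp (chromosome 4, 141475001 to 141475900). The wide peaks of Dido1, Kmt2a and Kat6b each overlapped 2 knockout peaks, and the width given is that of the one sharing most. The knockout counterpart measured 400 bp in Dido1 (wild type 3050 bp), 250 bp in Arhgap32, a GTPase-activating protein (wild type 2800 bp), and 300 bp in Dag1, which encodes dystroglycan (wild type 2800 bp). It measured 300 bp in the imprinted retrotransposon-derived gene Peg10 (wild type 2600 bp), 250 bp in the histone methyltransferase gene Kmt2a (wild type 2500 bp), 300 bp in Prr12 (wild type 2450 bp) and 650 bp in the zinc finger gene Prdm2 (wild type 2450 bp). In Rnf26, Plagl2, Sh3pxd2a, Atxn1l and Tti1 the knockout peak measured 200 to 400 bp, against wild-type peaks of 2200 to 2400 bp. The knockout peak of Tti1 shared 100 bp with the wild-type peak and ran past its end. That of Rnf26 had its midpoint outside the gene span. Kat6b had the widest knockout peak of the set, and those of Spen and Prdm2 were also wider than 500 bp.

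Some pairs ran the other way, with a knockout peak much wider than the wild-type peak. In Hirip3, whose product binds the HIRA chaperone, the knockout peak measured 1050 bp (chromosome 7, 126863101 to 126864150) and the wild-type peak 150 bp (126863751 to 126863900). In Cald1, which encodes the actin-binding protein caldesmon, the widths were 1150 bp in the knockout and 350 bp in the wild-type list, and the gene held 5 further knockout-only inner peaks. In Rnf44, a RING finger gene, they were 1150 bp in the knockout and 550 bp in the wild-type list, and in Enah, a regulator of actin filaments, 1000 bp in the knockout and 550 bp in the wild-type list. In Ptpn23, a factor of endosomal sorting, 1 knockout peak of 1150 bp (chromosome 9, 110387301 to 110388450) overlapped 2 wild-type peaks of 600 and 550 bp.

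Along the gene the peaks in both genotypes lay between the 2 sets of unshared peaks. The rule used both overlap with a knockout peak and distance to the span ends, so such a position can follow from the choice. The p-values on position below therefore describe the chosen set and give no independent support. Position by strand was known for 877 of the 1069 peaks, from the RefSeq start windows. Their median position, with 0 at the 5′ end and 1 at the 3′ end of the span, was 0.631, against 0.39 for knockout-only and 0.878 for wild-type-only peaks inside genes. In the last 10% of the span lay 214 of the 877 (24.4%), against 3787 of 8315 wild-type-only peaks (45.5%; odds ratio 0.386, 95% interval 0.329 to 0.453, adjusted p = 3.1e-34, Fisher's exact test, two-sided). In the first 10% lay 157 (17.9%), against 355 wild-type-only peaks (4.27%; odds ratio 4.89, 3.99 to 5.99, adjusted p = 2.7e-43, Fisher's exact test).

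The knockout peaks of the pairs were also set against knockout-only peaks. They mark the same sites, chosen by the same overlap and seen from the other list, so they are no separate support. Of the 840 knockout partners inside genes of known strand, 211 (25.1%) lay in the last 10% of the span, against 259 of 2912 knockout-only peaks (8.89%; odds ratio 3.44, 2.81 to 4.2, adjusted p = 7e-31, Fisher's exact test). In the first 10% lay 128 (15.2%), against 690 (23.7%; odds ratio 0.579, 0.471 to 0.712, adjusted p = 2.8e-07, Fisher's exact test). With both ends of the span counted as one and all genes used, 456 of the 1069 peaks (42.7%) lay in the outer 10% at either end, against 5091 of 10176 wild-type-only peaks (50%; odds ratio 0.743, 0.654 to 0.844, adjusted p = 1.5e-05), and 414 of 1020 knockout partners (40.6%) against 1132 of 3531 knockout-only peaks (32.1%; odds ratio 1.45, 1.25 to 1.67, adjusted p = 2.6e-06; Fisher's exact test for both). The 2 comparisons of both ends were planned, and the odds ratio of the knockout partners was 1.17 (adjusted p = 0.0916, Fisher's exact test) with the widest peak of each gene alone. The comparisons by strand and by start were added after the files were seen, and p-values were adjusted over the 9 planned and, apart from them, over the 14 added comparisons.

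**Figure D3:**
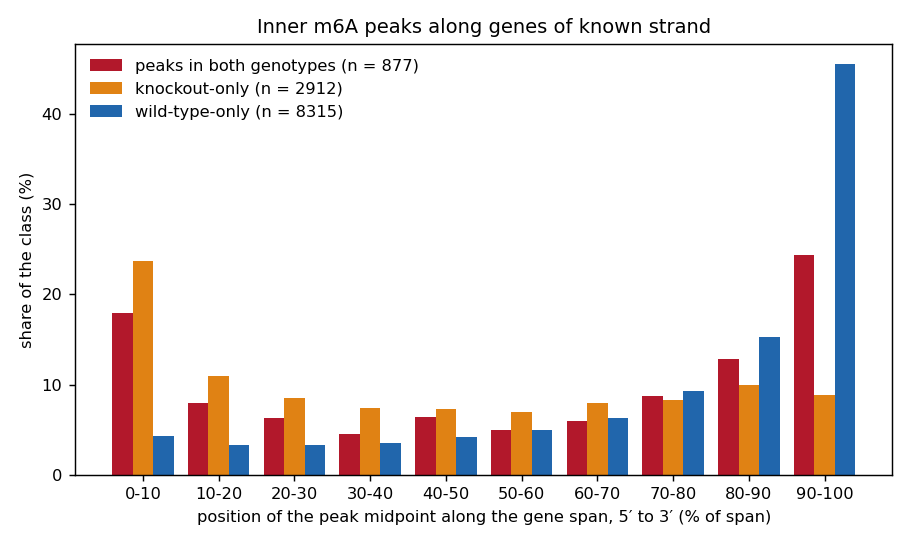
Share of inner m6A peaks (%) in each 10% of the gene span, 5′ to 3′, for the peaks in both genotypes (red, n = 877), knockout-only peaks (orange, n = 2912) and wild-type-only peaks (blue, n = 8315), in genes of known strand. The peaks in both genotypes have a rise at each end, 17.9% in the first and 24.4% in the last bin, while knockout-only peaks rise at the 5′ end (23.7%) and wild-type-only peaks at the 3′ end (45.5%).

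Many of the peaks lay close to an annotated start, as knockout-only peaks did and wild-type-only peaks rarely did. Overlap with a knockout peak was in the rule, so the p-values on starts carry the same limit. Within 500 bp of an annotated start lay 204 of the 877 peaks (23.3%, exact 95% interval 20.5 to 26.2%), against 229 of 8315 wild-type-only peaks (2.75%; odds ratio 10.7, 8.72 to 13.1, adjusted p = 4.3e-97, Fisher's exact test). For the knockout side the shares were 174 of 840 knockout partners (20.7%) and 732 of 2912 knockout-only peaks (25.1%; odds ratio 0.778, 0.646 to 0.938, adjusted p = 0.0186, Fisher's exact test). Since midpoints within 200 bp of the span ends were excluded by the rule, 104 of the 204 lay at a start of their own gene more than 200 bp inside the span, 76 were near a start at the span end, and 24 were near a start of another gene. The remaining 673 peaks had no annotated start within 500 bp.

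Width differed with location. At starts the knockout peak had a median of 300 bp and the wild-type peak 250 bp, with a median Jaccard index of 0.6. In the last 10% of the span the knockout peak again had a median of 300 bp, while the wild-type peak had 500 bp and the Jaccard index 0.4. Wild-type peaks over 1000 bp made up 3 of the 204 at starts (1.47%), 54 of 419 in the middle of genes (12.9%) and 40 of 213 in the last 10% (18.8%). In the rest of the first 10% the medians were 250 bp for the knockout and 350 bp for the wild-type peak. The wild-type peaks over 1000 bp thus lay mostly away from the starts. No test was made of these widths.

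YTHDC1 RIP peaks, which played no part in choosing the regions, lay on 193 of the 1069 peaks (18.1%, 15.8 to 20.5%). Over the whole lists 22% of knockout m6A peaks and 13.5% of wild-type m6A peaks shared bp with a RIP peak. The share was higher than for wild-type-only peaks inside genes (1254 of 10176, 12.3%; odds ratio 1.57, 1.33 to 1.85, adjusted p = 2.6e-06, Fisher's exact test, two-sided). It was lower than for overlapping peaks at gene ends (83 of 303, 27.4%; odds ratio 0.584, 0.434 to 0.786, adjusted p = 0.00085, Fisher's exact test). Among peaks up to 250 bp this second difference missed the threshold (17.1% against 22.8% at gene ends, adjusted p = 0.0999, Fisher's exact test), from there to 500 bp the odds ratio was 0.314, and above 500 bp it turned, with 7 peaks at gene ends (18.6% against 14.3%). Taken from the knockout side it was lower as well, with a RIP peak on 159 of 1020 knockout partners (15.6%), against 747 of 3531 knockout-only peaks (21.2%; odds ratio 0.688, 0.571 to 0.83, adjusted p = 0.00016, Fisher's exact test).

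RIP overlap varied with location in every class, and was less frequent in the middle and in the last 10% of genes than near the 5′ end, a description that was not tested. At starts a RIP peak lay on 64 of 204 peaks in both genotypes (31.4%), against 82 of 229 wild-type-only peaks (35.8%; adjusted p = 0.42, Fisher's exact test) and 63 of 228 overlapping gene-end peaks (27.6%). Of the gene-end peaks with known strand 95% lay at starts, and the order at starts was thus opposite to that over all locations, a difference that was not tested. In the rest of the first 10% the share was 36.6% of peaks in both genotypes and 23.9% of wild-type-only peaks (adjusted p = 0.176, Fisher's exact test). In the middle of genes it was 15.8% of peaks in both genotypes and 13.5% of wild-type-only peaks (adjusted p = 0.261, Fisher's exact test), and in the last 10% 8.92% of peaks in both genotypes and 9.54% of wild-type-only peaks (adjusted p = 0.926, Fisher's exact test). The higher overall share thus passed the test in none of the 4 locations. By width, it was 17.1% of peaks in both genotypes against 7.38% of wild-type-only peaks up to 250 bp (odds ratio 2.58, adjusted p = 4.8e-09) and 19.2% against 13% from there to 500 bp (odds ratio 1.59, adjusted p = 0.0204), both by Fisher's exact test. Among peaks over 500 bp it missed the threshold (18.6% of peaks in both genotypes against 15.3% of wild-type-only peaks, adjusted p = 0.168, Fisher's exact test). The width classes were not matched for location. At starts lay 23.3% of peaks in both genotypes and 2.75% of wild-type-only peaks, and width and location were not tested together. Of the 4 locations on the knockout side, the last 10% alone passed, with a RIP peak on 12 of 209 knockout partners (5.74%), against 33 knockout-only peaks (13.1%; odds ratio 0.402, 0.202 to 0.801, adjusted p = 0.022, Fisher's exact test).

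**Figure D4:**
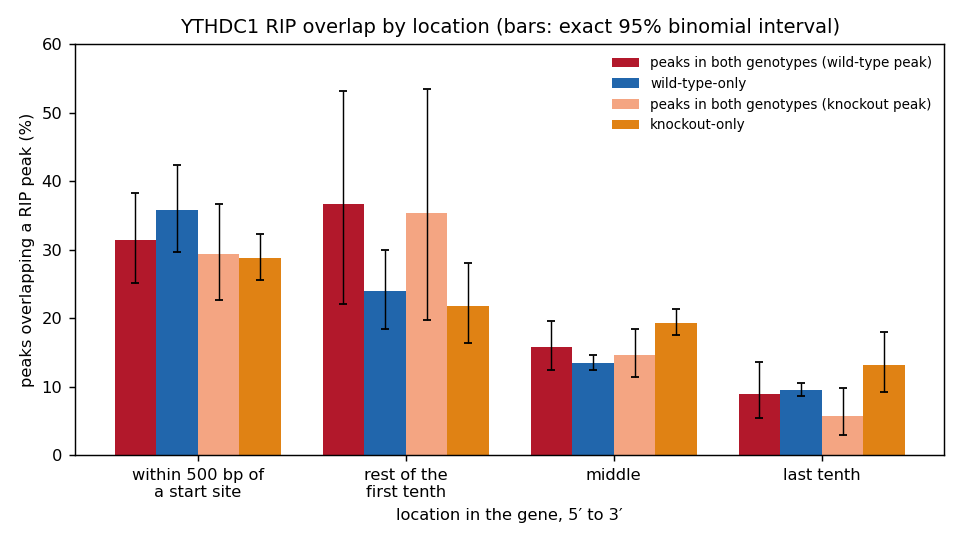
Share of m6A peaks that share bp with a YTHDC1 RIP peak (%), by location in the gene, 5′ to 3′, for the wild-type peaks of the pairs (red) beside wild-type-only peaks (blue) and for the knockout peaks of the pairs (light orange) beside knockout-only peaks (orange). Bars show exact 95% binomial intervals; shares in all 4 classes are lowest in the last 10% of the span, where the knockout peaks of the pairs stand at 5.74% and knockout-only peaks at 13.1%.

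The RIP peaks on these regions numbered 205, with a median width of 249 bp and a maximum of 1503 bp, against 203 bp and 11710 bp over the whole RIP list, and 30 of the 1069 m6A peaks lay wholly inside a RIP peak. In 158 of the 193 peaks with RIP overlap a RIP peak also lay on the knockout partner. Per gene, a RIP peak had its midpoint in 710 of the 885 genes (80.2%), against 3983 of the 5474 other genes with a wild-type peak inside (72.8%). Among the named genes, RIP peaks lay on the peaks of Dusp1, a phosphatase of MAP kinases, Upf2, a factor of nonsense-mediated decay, Eed, a core subunit of Polycomb repressive complex 2, Asxl2, another Polycomb-associated protein, Srsf4, a splicing factor, and Norad, a cytoplasmic non-coding RNA that binds Pumilio proteins (2 RIP peaks). Whether RIP overlap moves with the expression of a gene was not tested.

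On the chromosomes, 33 of the peaks (3.09%) lay on X, against 212 wild-type-only peaks (2.08%; odds ratio 1.5, 1.03 to 2.17, adjusted p = 0.0468, Fisher's exact test). Of the knockout partners 27 (2.65%) lay on X, against 156 knockout-only peaks (4.42%; odds ratio 0.588, 0.389 to 0.89, adjusted p = 0.0165, Fisher's exact test). Kdm6a, a demethylase of histone H3, and Cul4b, a ubiquitin ligase scaffold, were among the X-linked genes. The first of these differences was lost with midpoints more than 500 bp from span ends (odds ratio 1.08, adjusted p = 0.809, Fisher's exact test), and the second with the widest peak of each gene (odds ratio 0.755, adjusted p = 0.308). Among peaks above the median width of each list the odds ratio of the first was 3.48 (14 of 239 peaks, adjusted p = 0.00081, Fisher's exact test), and the second turned direction (odds ratio 1.66, adjusted p = 0.277, Fisher's exact test). In that setting the lists were cut before pairing, so peaks over a removed, narrower peak of the other list counted as unshared. Chromosome 7 held 126 of the peaks (11.8%), more than any other chromosome, against 7.87% of knockout-only and 7.35% of wild-type-only peaks, a description made after the counts were seen.

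Nearly all of the genes code for proteins. Of the 885 genes 872 were protein-coding and 13 long non-coding, and 16 peaks (1.5%) lay in long non-coding RNA genes, against 169 wild-type-only peaks (1.66%; odds ratio 0.9, 0.537 to 1.51, adjusted p = 0.8, Fisher's exact test). From the knockout side 14 partners (1.37%) lay in them, against 39 knockout-only peaks (1.1%; odds ratio 1.25, 0.674 to 2.3, adjusted p = 0.571, Fisher's exact test). Meg3, an imprinted non-coding RNA, had a knockout peak of 400 bp (chromosome 12, 109546301 to 109546700) around a wild-type peak of 250 bp (109546401 to 109546650). Norad had a knockout peak of 250 bp (chromosome 2, 156392751 to 156393000) within a wild-type peak of 1100 bp (156391901 to 156393000). Both ran past the end of the gene span at 156392979, and the knockout midpoint lay within 200 bp of that end.

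The 885 genes are 2.56% of the 34610 genes used and 13.9% of the 6359 genes with a wild-type peak inside. One peak was found in 736 genes, 2 in 121, 3 in 21 and 4 in 7. Among the 7 genes with 4 were Zfhx2, a zinc finger homeobox gene, Tet2, which oxidises methylated cytosine in DNA, Chaf1a, the large subunit of chromatin assembly factor 1, the imprinted zinc finger gene Plagl1, the corepressor gene Atn1 and Gab1, an adaptor of receptor tyrosine kinases. In Atn1 3 of its 4 knockout peaks and all 4 of its wild-type peaks were involved, with knockout widths of 400 to 950 bp and wild-type widths of 200 to 450 bp. In Tet2 the knockout peaks measured 100 to 300 bp and the wild-type peaks 150 to 2000 bp, and the gene also held 2 knockout-only and 3 wild-type-only inner peaks. In Zfhx2 the knockout peaks measured 250 to 500 bp and the wild-type peaks 550 to 1300 bp, beside 1 knockout-only and 7 wild-type-only inner peaks. Srcap, the ATPase that deposits histone H2A.Z, Prr12 and Rere were among the 21 genes with 3.

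Most of the genes carried peaks of 1 genotype as well. A knockout-only inner peak lay in 311 of the 885 (35.1%), a wild-type-only inner peak in 554 (62.6%), both in 189 (21.4%) and neither in 209 (23.6%). Of the 5474 other genes with a wild-type inner peak, 951 (17.4%) held a knockout-only inner peak. The genes had a median span of 26073 bp. They held a median of 2 wild-type inner peaks, against 1 in the other genes with such a peak, and a gene with more wild-type peaks has more chances to meet the rule. An overlapping peak at the gene end was found in 79 of the 885 genes (8.93%).

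Gene lists by role are given as counts, beside the 2.56% of all genes and the 13.9% of genes with a wild-type inner peak. Of the pluripotency factors, 10 of 34 held such a peak, which is 10 of the 25 with a wild-type inner peak. Klf4 had a knockout peak of 200 bp (chromosome 4, 55532251 to 55532450) at the upstream end of a wild-type peak of 900 bp (55531551 to 55532450), near its start. Mycn had a knockout peak of 300 bp (chromosome 12, 12936901 to 12937200) inside a wild-type peak of 1000 bp (12936401 to 12937400), 85.9% of the way along the gene. Tbx3, Sall1 and Klf5 were others on this list. Sox2, Nanog, Pou5f1 and Myc held none. Sox2 had an overlapping peak at the gene end instead, Nanog had 1 knockout-only and 1 wild-type-only inner peak, and Pou5f1 and Myc had no inner peak in either list.

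By the share of all genes on a list, 2 lists of chromatin regulators came highest. By the share of genes with a wild-type inner peak, splicing factors (12 of 21) and the Mediator list (15 of 27) did, apart from ribosomal proteins (1 of 1). Of 29 trithorax and SET methyltransferase genes 14 held a peak in both genotypes, of 28 with a wild-type inner peak, among them Kmt2a, Kmt2b, Setd5, Ash1l and Kdm6a. Of 26 acetyltransferase and coactivator genes 12 did, of 24 with a wild-type inner peak, including Kat6b, Ep300, Brpf1 and Ncoa6. In Ep300, a histone acetyltransferase of enhancers, 2 knockout peaks, the one sharing most 350 bp wide (chromosome 15, 81650451 to 81650800), lay under a wild-type peak of 2000 bp (81649101 to 81651100). Chromatin remodellers stood at 8 of 28, with Arid1a, Arid2, Chd8, Srcap and Baz2a, and Polycomb genes at 5 of 32, of which Jarid2, Eed and Asxl2 had their peak at a start and Pcgf2 and Phc1 had their widest one further along. These shares were not adjusted for the length or expression of the genes.

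Among genes of transcription and RNA processing, 15 of 34 in the list of Mediator, elongation and RNA polymerase II held a peak, with Polr2a, Spen, the Mediator subunit Med1, the cyclin Ccnt1 and the elongation scaffold Aff4 as examples. Splicing factors and speckle proteins stood at 12 of 45. In Srsf4 the knockout peak of 800 bp (chromosome 4, 131900001 to 131900800) held the wild-type peak of 550 bp (131900201 to 131900750), and 1 RIP peak lay on it. Of 39 genes of microRNA silencing and mRNA decay 9 held one. Drosha, the nuclease that cuts primary microRNAs, had a knockout peak of 850 bp (chromosome 15, 12833751 to 12834600) around a wild-type peak of 700 bp (12833751 to 12834450). Cnot1 and Cnot4 of the deadenylase complex, Upf2 and Zfp36l1 were others.

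The m6A machinery itself stood at 7 of 24 genes. Besides Cbll1 these included Zc3h13, another partner of the writer, the demethylase gene Fto and the reader genes Ythdc1, Ythdf3 and Igf2bp2. In Fto the knockout peak measured 200 bp (chromosome 8, 91409151 to 91409350) and the wild-type peak 650 bp (91409151 to 91409800), and the gene held 3 such peaks. Ythdf3 had a knockout peak of 150 bp (chromosome 3, 16204501 to 16204650) within a wild-type peak of 1350 bp (16203851 to 16205200). Mettl3, the deleted gene, held no inner m6A peak in either list. In the list of retrotransposon silencing 6 of 32 genes held one, with Tet2, Chaf1a, Atf7ip, Morc2a and Zfp809, and Atf7ip, a partner of the SETDB1 methyltransferase, also held 7 knockout-only inner peaks.

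Further lists gave these counts. Imprinted retrogenes, cytolinkers and adhesion genes stood at 9 of 30, ubiquitin ligases and proteases at 6 of 30 and signalling and immediate early genes at 7 of 35. Gsk3b, a kinase of the Wnt pathway, and Smad6, an inhibitor of BMP signalling, had their peak at a start, and Tcf7l1, a repressor of Wnt targets, had its widest one at 99.8% of the gene's length. Housekeeping genes stood at 4 of 24, among them Ubb, Tbp and Ywhaz. Ribosomal protein genes stood at 1 of 67, Rpl28, and 1 of the 67 held a wild-type inner peak at all. Of the lineage markers, Nes for neuroectoderm (1 of 14) and Tfap2c for trophoblast (1 of 12) held a peak, and none of 13 mesoderm, 13 endoderm and 13 fibroblast genes did. Few of these genes could meet the rule. A wild-type inner peak lay in 5 neuroectoderm, 3 mesoderm, 2 trophoblast, 1 fibroblast and 0 endoderm genes. Malat1, Neat1 and Xist held none. Neat1 had 1 overlapping peak at the gene end and 1 wild-type-only inner peak. Malat1 had 1 knockout-only and 1 wild-type-only inner peak, and Xist 1 knockout-only inner peak.

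**Figure D5:**
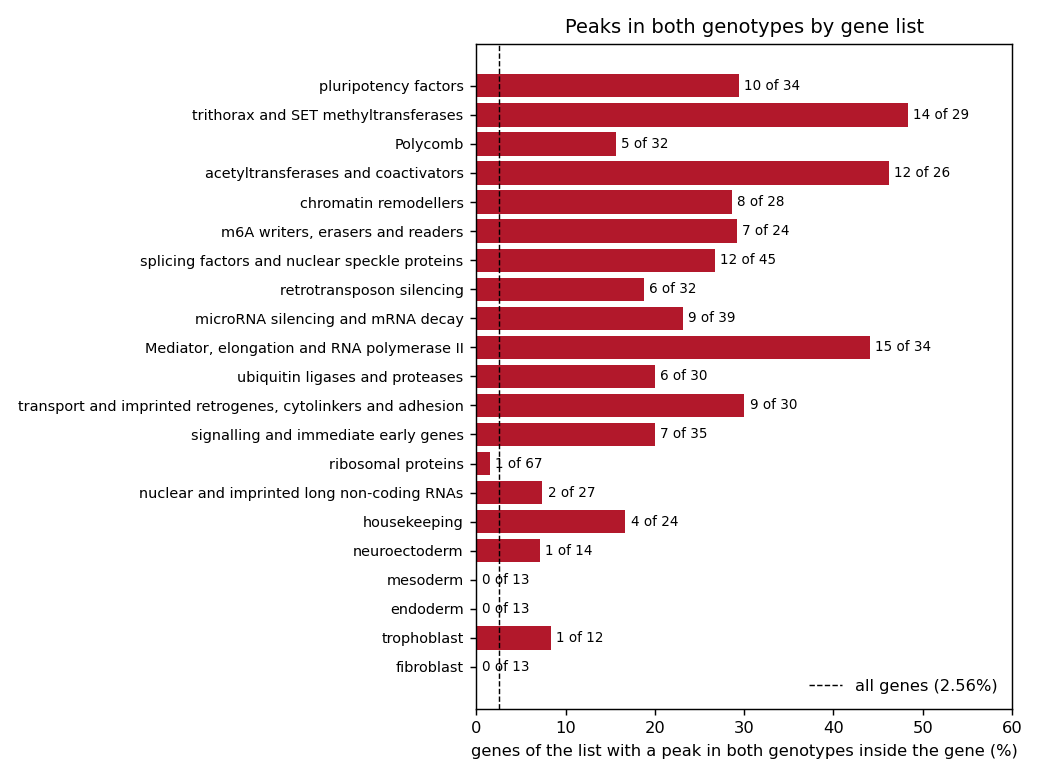
Share of the genes of each list (%) that held a peak in both genotypes inside the gene, with the count beside each bar. The dashed line is the share of all 34610 genes (2.56%); the list of trithorax and SET methyltransferases has the longest bar (14 of 29) and mesoderm, endoderm and fibroblast markers are at 0. Few or none of the genes on these 0 lists held a wild-type inner peak.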

How the data were processed

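The authors deposited 3 peak lists with 3 columns (chromosome, start and end), so the unit of the values is other than a count or a signal: the position of a peak in bp. The submitters' processing notes name mm10 as the build and, as tools, MACS2 2.1.2, SAMtools 1.9, HISAT2 2.2.0, Trim Galore 0.6.4, STAR 2.7 and bcl2fastq. The role of each, the peak threshold and any pooling of replicates were not given in the sources used here. Depth is unknown, and more depth can give more and wider peaks.

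Genes were the 34610 protein-coding and long non-coding RNA spans of the RefSeq table of GRCm38.p6 on 21 chromosomes, and strand and the 32850 annotated starts came from RefSeq windows of 250 bases before to 50 after each start, in 27024 genes. Where spans overlapped, a protein-coding gene was preferred, then the shortest. Exons and the motif content of whole peaks were not analysed here. Overlap meant at least 1 bp and a wild-type-only or knockout-only peak had none with the other m6A list. Alternatives that changed the minimum overlap or cut the lists at their median width applied this to the changed pairs. Locations, in order of precedence, were within 500 bp of a start, the first 10% of the span, the last 10%, and the middle. Coordinates are counted from 1.

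Intervals of shares are exact binomial (Clopper-Pearson, 95%) and cover counting error alone. Peak classes were tested against each other with Fisher's two-sided exact test. Odds ratios carry Wald 95% intervals, and p-values were adjusted by Benjamini-Hochberg and read at 0.05. The code was tested on simulated data (Python 3.11.15, pandas 2.3.3, scipy 1.17.1).

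The regions and the gene lists were chosen with earlier results of these data known. Named genes were those of the 15 widest wild-type peaks, the 10 widest knockout partners, the 10 longest shared stretches, the 10 genes with most such peaks, up to 5 genes per list by widest peak, and Sox2, Nanog, Klf4, Pou5f1, Myc, Ythdc1, Mettl3, Malat1, Neat1 and Xist. Of the peaks, 34 lie in genes with provisional names, which kept their rank and are not printed, and a few further genes that met the rule are not reported here. Alternatives changed the minimum overlap, the distance to span ends, the widths and the choice of gene.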

Additional observations from a re-analysis of the deposited data

How the results depend on the processing

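Of 63 alternatives of the 9 comparisons, 40 kept the direction and the side of the threshold, 14 kept the direction and missed the threshold, and 9 changed direction. The cause of these changes was not tested, and the width limits leave smaller numbers of peaks. With peaks above the median width of each list, 239 of the 1069 peaks remained and 1 peak lay inside the other in 65.6% of pairs, against 81.7% in all. The m6A and RIP lists were cut before they were compared in this setting. A wide wild-type peak over a removed, narrower knockout peak thus counted as wild-type-only, and the same held for the knockout side. Odds ratios there were 1.27 for RIP overlap against wild-type-only peaks, 0.509 against gene-end peaks (5 peaks), 1.66 (reversed) on the knockout and 3.48 on the wild-type side for X, and 1.24 on the knockout and 0.81 on the wild-type side for the outer 10%. With peaks over 500 bp the RIP odds ratios were 1.26 against wild-type-only peaks, 1.37 (reversed) against 7 gene-end peaks and 0.594 on the knockout side. With peaks up to 250 bp they were 2.58 against wild-type-only and 0.698 against gene-end peaks. With 500 bp kept from span ends it was 1.04 (reversed) for long non-coding RNA and 1.08 for X on the wild-type side, and with overlap of at least 50% of the narrower peak 1.5 for X (adjusted p = 0.0551, Fisher's exact test). With the widest peak of each gene the knockout side had 0.979 (reversed) for long non-coding RNA, 0.755 for X and 1.17 for the outer 10%. The shortest span of either type gave 1.16 (reversed) for long non-coding RNA. Within locations, chosen after seeing the data, RIP odds ratios on the wild-type side were 0.82 (reversed) at starts, 1.84 in the rest of the first 10%, 1.2 in the middle and 0.929 (reversed) in the last 10%. On the knockout side they were 1.02 (reversed), 1.95 (reversed) and 0.717 in the first 3 of these. No paired analysis was possible because the lists carry no values per replicate, and for the same reason no replicate could be left out.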
